A study of Mus musculus with 12 samples.

Results

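The mast cell transcripts Mcpt4, Cma1, Tpsb2, Cpa3, Fcer1a, Ms4a2 and Kit were followed across sorted mouse B cell samples, with peritoneal B1 cells at the centre. The 7 genes were taken by name, as every probe set of the array whose annotation gives 1 gene symbol that is one of them. All 7 were measured, by 10 of the 45037 probe sets, and they are 7 of the 18193 genes tested. Where a gene had more than 1 probe set, the one with the highest mean over the 12 arrays stood for it. Values are log2 of the deposited intensity unless said otherwise.

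RNA came from female C57BL/6 mice, and the cells were sorted by flow cytometry straight from the organ. Old B1 cells came from the peritoneal cavity of mice older than 15 months, and young B1 cells from the same site in mice of 8 weeks. Old age-associated B cells (ABC) and old follicular B cells (FO) came from the spleen of mice older than 15 months. Each of the 4 groups holds 3 arrays, and no young spleen sample is among them. The titles write B1a where the cell type field writes B1, the sources used here do not give the surface markers of the sorts, and no treatment or engineered allele is named for any group. The labels do not say whether replicates are separate mice, so each p-value reflects the spread between samples alone, and that spread may be technical.

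Mast cells are tissue-resident cells with granules full of heparin-bound proteases, and the peritoneal cavity is a classic source of the connective tissue type. Mcpt4 and Cma1 encode chymases, Tpsb2 a tryptase and Cpa3 the carboxypeptidase of these granules. Fcer1a and Ms4a2 encode the alpha and beta chains of the high-affinity IgE receptor, which basophils carry too, and Kit is the receptor for stem cell factor on which mast cells depend. The granule proteases are not among the known markers of B cells.

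The arrays were checked for their own quality and for the labelled cell type. Array medians lay between 44.0 and 49.2 on the linear intensity scale. Old B1 replicate 3 and old FO replicate 2 stood apart, with 75th percentiles of 346 and 378 where the other arrays had 400.1 to 412, and with the lowest array weights, 0.102 and 0.349. Without both arrays together the 7 genes gave the same number of calls in each of the 5 comparisons. Cd79a, a signalling chain of the B cell receptor, averaged 13.23 in old B1, 13.15 in young B1, 13.27 in old ABC and 13.35 in old FO on the log2 intensity scale. It is 1 of 14 measured genes of a B cell identity list. By limma at an adjusted p under 0.05, 1 of the 14 was higher and 4 lower in old B1 than in old FO. Shares of all genes were 8.4% and 8.02%. Against old ABC 0 were higher and 4 lower in old B1, beside 5.43% and 7.4% of all genes. Pax5, also of that list, was under the array median on all old B1 arrays. In old B1 against old FO, 12 of 12 genes of a B1 cell list were higher by limma, beside 8.4% of all genes. Among them was the transcription factor gene Sox5 (5.26, adjusted p = 5.1e-07). In old ABC against old FO 9 of the 12 were higher and 1 lower, beside 7.12% and 2.84% of all genes. Old B1 against old ABC gave 6 higher and 1 lower, beside 5.43% and 7.4%. The list thus set old ABC as well as old B1 apart from old FO. In a bulk sample, more cells of a type and more RNA per cell cannot be told apart.

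The sequence before the transcription start is shown because most of the 7 genes correlated over the peritoneal arrays, as given further on, and because GATA2, a transcription factor, is known to act in mast cells and basophils. RefSeq promoters (GRCm38.p6) were found for 6 of the 7 genes, and the 250 bases before the start were searched for AGATAA and AGATAG and for TGATAA and TGATAG, on both strands. Capitals mark each match, and all sequences run 5′ to 3′ towards the start.
Mcpt4: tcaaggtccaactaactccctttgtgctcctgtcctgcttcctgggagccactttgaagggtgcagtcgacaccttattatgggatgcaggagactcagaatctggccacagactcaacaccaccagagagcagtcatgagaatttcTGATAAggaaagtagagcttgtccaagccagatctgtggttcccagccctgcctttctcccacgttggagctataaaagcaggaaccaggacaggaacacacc
Cma1: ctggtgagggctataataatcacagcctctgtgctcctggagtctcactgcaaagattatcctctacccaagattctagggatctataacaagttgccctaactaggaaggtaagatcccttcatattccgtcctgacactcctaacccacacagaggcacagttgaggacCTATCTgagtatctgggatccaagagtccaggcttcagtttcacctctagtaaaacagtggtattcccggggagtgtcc
Cpa3: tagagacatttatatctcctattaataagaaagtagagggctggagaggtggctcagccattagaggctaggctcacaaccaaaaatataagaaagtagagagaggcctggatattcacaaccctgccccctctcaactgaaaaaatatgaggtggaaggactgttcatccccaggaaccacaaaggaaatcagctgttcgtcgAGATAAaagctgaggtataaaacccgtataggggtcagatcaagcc
Fcer1a: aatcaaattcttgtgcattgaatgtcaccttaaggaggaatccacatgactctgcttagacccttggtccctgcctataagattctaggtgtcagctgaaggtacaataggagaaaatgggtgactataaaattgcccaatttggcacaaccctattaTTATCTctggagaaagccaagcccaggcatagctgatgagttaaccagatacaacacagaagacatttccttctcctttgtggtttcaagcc
Ms4a2: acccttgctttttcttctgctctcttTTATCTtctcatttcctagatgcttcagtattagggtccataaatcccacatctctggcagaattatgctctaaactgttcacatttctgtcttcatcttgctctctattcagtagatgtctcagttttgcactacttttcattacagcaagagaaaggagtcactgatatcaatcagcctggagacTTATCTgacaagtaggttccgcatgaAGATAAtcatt
These lie on the minus strand at chr14:56062311-56062560 (Mcpt4), chr14:55944676-55944925 (Cma1), chr3:20242182-20242431 (Cpa3), chr1:173227230-173227479 (Fcer1a) and chr19:11623720-11623969 (Ms4a2). Counted back from the start, the first base of the match was at -103 in Mcpt4, -79 in Cma1, -46 in Cpa3 and -92 in Fcer1a. Ms4a2 had 3 matches, at -224, -37 and -11. Kit, on the plus strand with 2 listed starts, had none of these letters in its window. Thus 5 of 6 genes held a match, and so did 7322 of 27018 promoters searched the same way (27.1%). At least 2 matches occurred in 6.69% of them. An E-box written CATGTG or CACGTG occurred in 17.6% of promoters and, among the 6 genes, in Fcer1a. A match is a description of letters and not a bound site.

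Mcpt4, a chymase, had log2 intensities of 9.61, 9.15 and 8.12 in old B1, 10.20, 7.94 and 10.28 in young B1, 4.84, 3.03 and 3.31 in old ABC, and 2.56, 2.97 and 3.51 in old FO (replicates 1, 2 and 3, an order kept throughout). Cma1, the other chymase, had 10.51, 10.12 and 9.51 in old B1, 11.68, 9.27 and 11.53 in young B1, 5.80, 4.01 and 4.81 in old ABC, and 4.93, 4.75 and 3.75 in old FO. Tpsb2, the tryptase, had 9.34, 8.97 and 8.53 in old B1, 10.78, 8.48 and 10.58 in young B1, 5.42, 5.33 and 4.64 in old ABC, and 5.25, 4.88 and 4.78 in old FO. For these 3 granule proteases every peritoneal array lay above every spleen array, while the spleen groups overlapped. In the order of group means, young B1 stood above old B1 and old ABC above old FO, and neither neighbouring pair differed beyond its spread.

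Cpa3, the carboxypeptidase, had 10.46, 9.77 and 8.85 in old B1, 11.56, 9.51 and 11.71 in young B1, 8.23, 7.30 and 5.46 in old ABC, and 4.02, 4.27 and 4.18 in old FO. Its order was young B1, old B1, old ABC and old FO, and the last 3 groups did not overlap. The old ABC arrays spread over a wide range for this gene, with replicate 1 highest and replicate 3 lowest.

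Fcer1a, the IgE-binding chain, had 7.53, 7.01 and 6.14 in old B1, 8.41, 6.30 and 8.75 in young B1, 7.96, 7.55 and 5.47 in old ABC, and 2.82, 2.38 and 2.95 in old FO. Ms4a2, the signal-amplifying chain, had 6.47, 6.39 and 5.18 in old B1, 6.47, 5.70 and 6.46 in young B1, 6.99, 5.67 and 5.22 in old ABC, and 3.70, 3.82 and 3.54 in old FO. For both receptor chains the old B1, young B1 and old ABC arrays overlapped, and all of them lay above the old FO arrays.

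Kit had 5.32, 4.71 and 3.11 in old B1, 6.53, 4.85 and 6.29 in young B1, 5.42, 4.28 and 5.09 in old ABC, and 3.18, 3.46 and 3.67 in old FO. Old B1 replicate 3 was the lowest of all 12 arrays for Kit, and old B1 overlapped with every other group. Young B1 and old ABC each lay above old FO without overlap. Kit was under the array median on all 3 old B1 arrays, and all 7 genes were under it on all 3 old FO arrays.

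**Figure D1:**
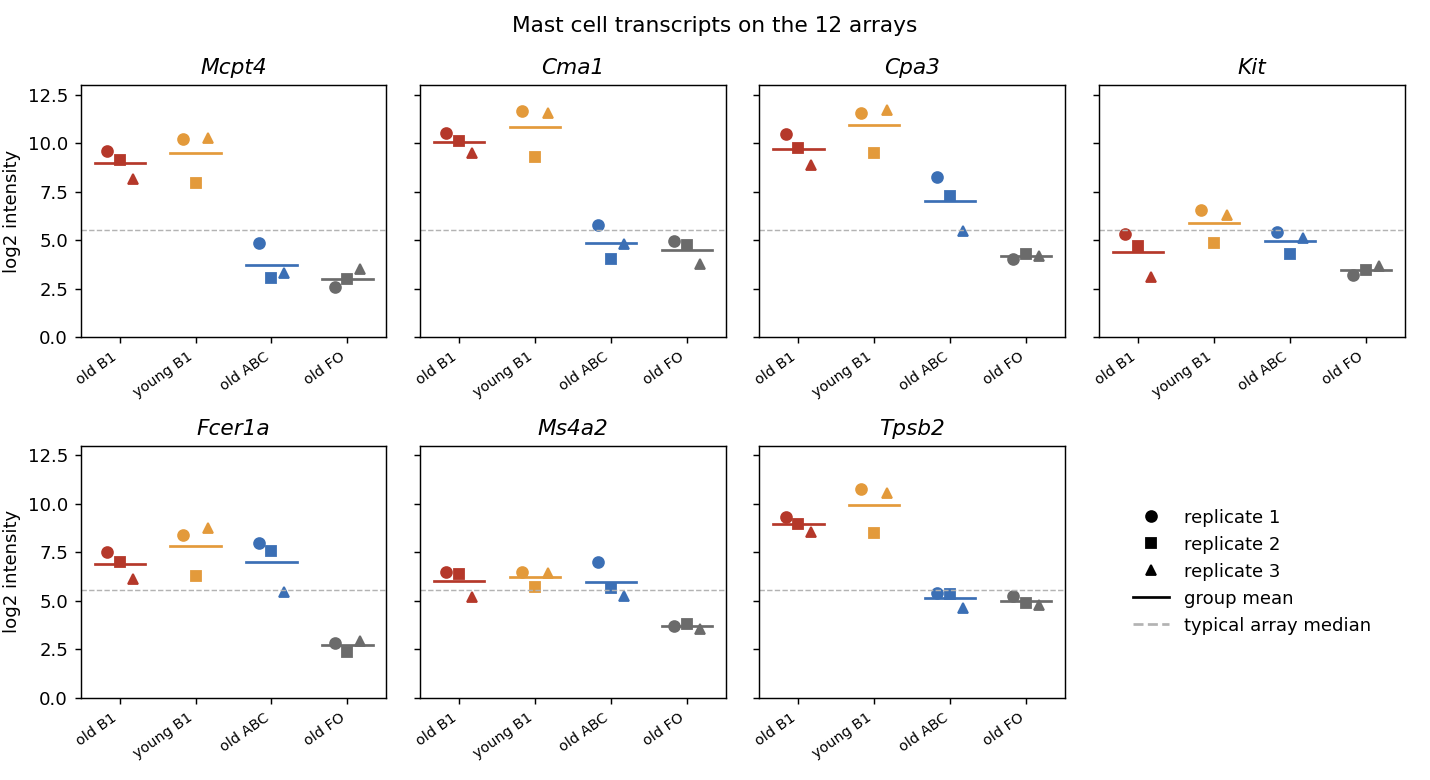
Log2 intensity (vertical axis) of each of the 7 mast cell genes on the 12 arrays, by group (old B1, young B1, old ABC, old FO, left to right); symbols mark the replicate, lines the group mean, and the dashed line the median of all probe sets over all arrays. Mcpt4, Cma1 and Tpsb2 separate the peritoneal from the spleen arrays, while Fcer1a and Ms4a2 separate old FO from the other groups.

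Kit, Ms4a2 and Tpsb2 each had another probe set with 1 symbol, and these were dim. Over the 12 arrays they ran from 2.77 to 3.69 for Kit, 3.08 to 4.79 for Ms4a2 and 3.16 to 3.92 for Tpsb2. Among the 5 comparisons they passed the test once, for Kit in young B1 against old FO (0.57, adjusted p = 0.0275). The results for these 3 genes therefore rest on 1 probe set each, and averaging the probe sets lowered the differences, as given with the other processing choices.

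Old B1 against old FO sets the peritoneal cells beside resting spleen B cells of the same age. Organ and cell type differ together there and cannot be told apart. Of the 7 genes 6 were higher in old B1 and 0 lower, where 8.4% of all genes were higher and 8.02% lower (limma, adjusted p under 0.05, here and below). Mcpt4 averaged 8.96 ± 0.76 in old B1 and 3.01 ± 0.47 in old FO (SD, n = 3 each), a log2 difference of 5.95 ± 0.68 (SE; 61.7-fold, adjusted p = 0.000171). Cma1 differed by 5.57 ± 0.65 (47.5-fold, adjusted p = 0.000214) and Cpa3 by 5.54 ± 0.74 (46.4-fold, adjusted p = 0.000495). Tpsb2 differed by 3.98 ± 0.52 (15.8-fold, adjusted p = 0.000431). Chymases, tryptase and carboxypeptidase were thus all higher in old B1. The files used here carry no detection call. In old FO the 7 genes exceeded from 1.95% to 47.5% of the probe sets on their array, and Mcpt4 from 4.14% to 22.1%. A fold against values this low is a ratio of deposited intensities and no measure of the ratio of transcripts.

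The IgE receptor chains differed by 4.18 ± 0.73 for Fcer1a (18.1-fold, adjusted p = 0.00289) and 2.33 ± 0.46 for Ms4a2 (5.02-fold, adjusted p = 0.00537). Kit did not pass, at 0.94 ± 0.57 (95% interval -0.33 to 2.22, adjusted p = 0.329). Without old B1 replicate 3 the Kit difference was 1.58 (adjusted p = 0.0416), and without it and old FO replicate 2 it was 1.59 (adjusted p = 0.0689). The median over the 7 genes was 4.18, against -0.04 over all genes. Groups did not overlap for 6 of the 7 genes, and 12.3% of all genes were higher without overlap.

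Young B1 against old FO differs in age as well as in organ and cell type, which cannot be told apart. All 7 genes were higher in young B1, and 0 were lower, where 8% of all genes were higher and 4.91% lower. Cpa3 averaged 10.93 ± 1.23 in young B1 and 4.16 ± 0.13 in old FO (SD, n = 3 each), a log2 difference of 6.77 ± 0.74 (109-fold, adjusted p = 0.000155). Mcpt4 differed by 6.46 ± 0.68 (adjusted p = 0.000122), Cma1 by 6.35 ± 0.65 (adjusted p = 0.000111) and Tpsb2 by 4.98 ± 0.52 (adjusted p = 0.000115). Among the receptors, Fcer1a differed by 5.10 ± 0.73 (adjusted p = 0.000989) and Ms4a2 by 2.52 ± 0.46 (adjusted p = 0.00411).

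Kit passed in young B1, at 2.45 ± 0.57 (5.46-fold, adjusted p = 0.0174). The Kit call was lost without young B1 replicate 1 (adjusted p = 0.076), young B1 replicate 3 (adjusted p = 0.0757) or old FO replicate 1 (adjusted p = 0.0662). This comparison and that of old B1 share the old FO arrays.

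Old B1 against young B1 asks whether the transcripts changed with age in the same compartment. By limma 0 of the 7 genes passed, beside 0.291% of all genes, and 1 of the 7, Kit, had an unadjusted p under 0.05. Kit averaged 4.38 ± 1.14 in old B1 and 5.89 ± 0.91 in young B1 (SD, n = 3 each), a log2 difference by limma of -1.50 ± 0.57 (95% interval -2.78 to -0.23, adjusted p = 0.578). For Mcpt4 the difference was -0.51 ± 0.68 (95% interval -2.01 to 0.99) and for Cpa3 -1.23 ± 0.74 (95% interval -2.86 to 0.40). All 7 differences were below 0 and the age groups overlapped for all 7 genes, where 6.14% of all genes were higher and 7.75% lower without overlap, while the intervals leave room for changes of over 1 log2 unit for each gene.

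Old B1 against old ABC compares cells of the same age that differ in organ and in cell type, which cannot be told apart. Here 4 of the 7 genes were higher in old B1 and 0 lower, where 5.43% of all genes were higher and 7.4% lower. Mcpt4 averaged 8.96 ± 0.76 in old B1 and 3.73 ± 0.97 in old ABC (SD, n = 3 each), a log2 difference of 5.24 ± 0.68 (37.7-fold, adjusted p = 0.000566). Cma1 differed by 5.18 ± 0.65 (36.1-fold, adjusted p = 0.000509) and Tpsb2 by 3.81 ± 0.52 (14.1-fold, adjusted p = 0.000758). These 3 genes kept their call without any 1 array.

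Cpa3 differed by 2.70 ± 0.74 (6.49-fold, adjusted p = 0.0353). That call was lost without old B1 replicate 1 (adjusted p = 0.101) or 2 (adjusted p = 0.0797), and without old ABC replicate 2 (adjusted p = 0.0793) or 3 (adjusted p = 0.108). Fcer1a, at -0.10 ± 0.73 (95% interval -1.72 to 1.53), Ms4a2, at 0.05 ± 0.46 (95% interval -0.96 to 1.07), and Kit, at -0.54 ± 0.57 (95% interval -1.82 to 0.73), did not pass. Each of these intervals allows a difference in either direction.

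Old ABC against old FO compares both spleen populations. Of the 7 genes 3 were higher in old ABC and 0 lower, where 7.12% of all genes were higher and 2.84% lower. Fcer1a averaged 6.99 ± 1.34 in old ABC and 2.72 ± 0.30 in old FO (SD, n = 3 each), a log2 difference of 4.27 ± 0.73 (19.4-fold, adjusted p = 0.0037). Ms4a2 differed by 2.27 ± 0.46 (4.83-fold, adjusted p = 0.00935) and Cpa3 by 2.84 ± 0.74 (7.15-fold, adjusted p = 0.034). The IgE receptor chains kept their call without any 1 array.

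The Cpa3 call was lost without old ABC replicate 1 (2.22, adjusted p = 0.128) or 2 (adjusted p = 0.11), and without any 1 of the old FO arrays (adjusted p from 0.08 to 0.104). Mcpt4, at 0.71 ± 0.68, Cma1, at 0.40 ± 0.65, and Tpsb2, at 0.16 ± 0.52, did not pass (adjusted p of 0.661, 0.839 and 0.927). Kit, at 1.49 ± 0.57, had groups without overlap, as did 15.2% of all genes in that direction, but did not pass (adjusted p = 0.16).

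**Figure D2:**
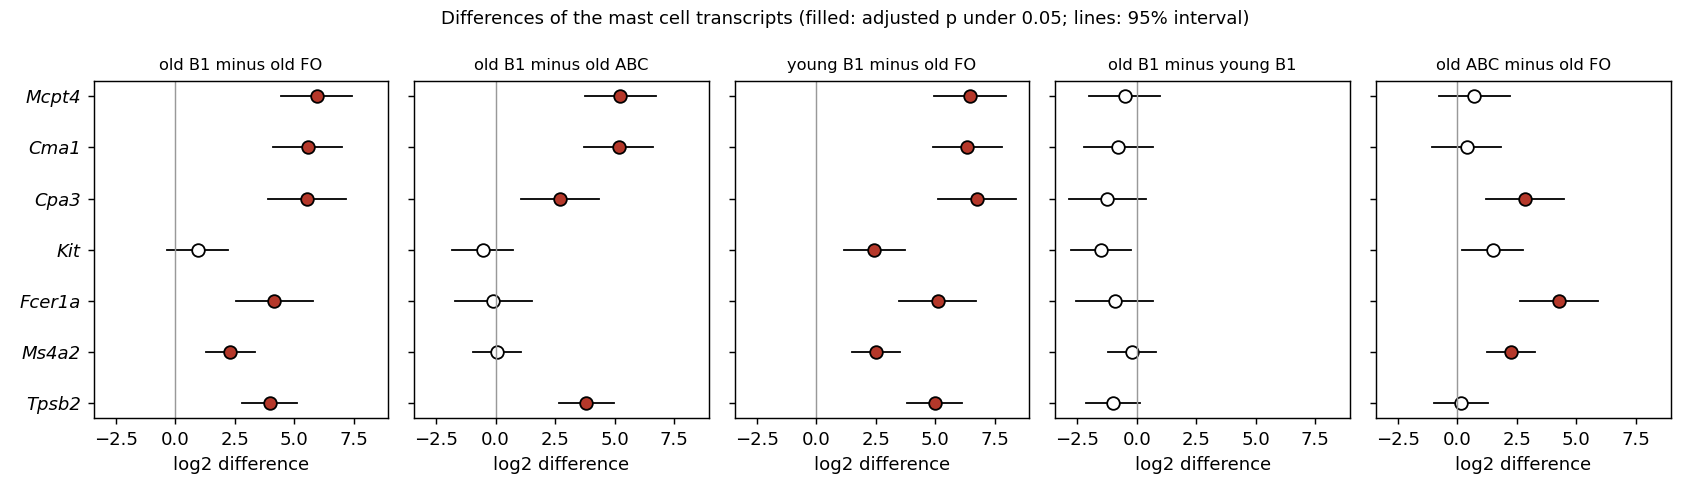
Log2 difference (horizontal axis) of each of the 7 genes in 5 comparisons, 1 panel each, with 95% intervals; filled points passed at an adjusted p under 0.05. The granule proteases Mcpt4, Cma1 and Tpsb2 pass in the panels that set peritoneal against spleen cells, Fcer1a and Ms4a2 in the panels against old FO.

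Genes of basophils, which share the IgE receptor and Cpa3 with mast cells, were read beside these results. Mcpt8, a basophil protease, had 5.11, 5.07 and 5.70 in old B1, 4.50, 4.75 and 4.74 in young B1, 9.82, 8.75 and 7.22 in old ABC, and 4.55, 5.23 and 5.73 in old FO. All old ABC arrays lay above all others for Mcpt8, and the B1 groups overlapped with old FO. Old ABC exceeded old FO by 3.42 ± 0.54 (adjusted p = 0.00214), and old B1 was lower than old ABC by -3.30 ± 0.54 (adjusted p = 0.00239). Old B1 against old FO gave 0.12 (adjusted p = 0.914).

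Cd200r3, a receptor of basophils and mast cells, had 3.65, 3.61 and 4.81 in old B1, 4.75, 3.19 and 4.91 in young B1, 6.59, 5.64 and 4.87 in old ABC, and a mean of 2.87 in old FO. It was higher in old ABC than in old FO by 2.83 ± 0.53 (adjusted p = 0.00613). In old B1 against old ABC it differed by -1.68 (adjusted p = 0.0654), and by -2.07 without old B1 replicate 3 (adjusted p = 0.025). Of the 5 measured genes of the basophil list 4 were higher in old ABC than in old FO, beside 7.12% of all genes. Il4 (1.46) and Il18rap (2.32) were among them. The list's median was 2.32, against -0.03 over all genes. The count of 4 held without any 1 array. Other lists were higher there too, with 10 of 18 macrophage, 4 of 9 dendritic cell and 3 of 9 NK cell and ILC genes. For T cell and mesothelial genes the counts were 1 of 9 and 1 of 12. In old B1 against old FO 2 of the 5 basophil list genes were higher, beside 8.4% of all genes. They were Il6ra (1.72) and Il18rap (1.08), both of which other cells express too.

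Within the old ABC replicates, Cpa3, Fcer1a, Ms4a2 and Tpsb2 had replicate 1 highest and 3 lowest, and so had Mcpt8 and Cd200r3. Mcpt4, Cma1, Kit and the basophil list gene Il4 had replicate 1 highest and 2 lowest, and Il18rap had replicate 2 highest. Genes of other lists, such as Krt8, Ctla4, Ncr1 and Themis, also had replicate 1 highest and 3 lowest. That order is thus not confined to basophil and mast cell genes. The share of all genes with it was not computed, so how common it is cannot be told. The summed intensity of the basophil list ran from 1679 to 1997 in old B1, 1765 to 1982 in young B1, 851 to 1778 in old ABC and 505 to 731 in old FO. That sum rests largely on Il6ra in the B1 groups. The summed intensity of the 7 mast cell genes ran from 1957 to 4608 in old B1, 2110 to 9758 in young B1, 223 to 846 in old ABC and 102 to 120 in old FO. Whether mast cells or basophils among the sorted cells had a part in these values was not tested.

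**Figure D3:**
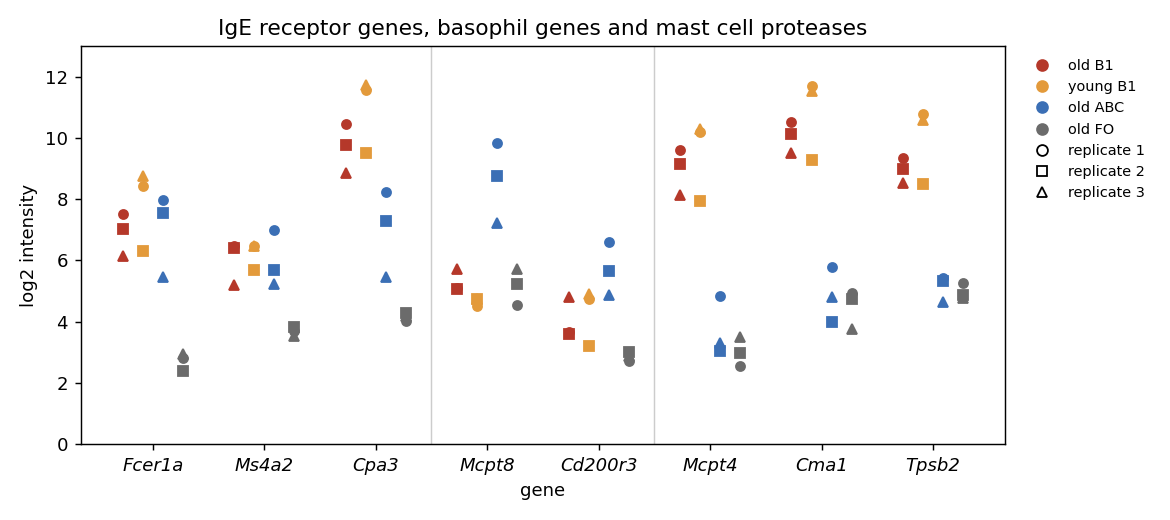
Log2 intensity (vertical axis) of the IgE receptor genes and Cpa3 (left), the basophil genes Mcpt8 and Cd200r3 (middle) and the mast cell proteases (right) on the 12 arrays; colours mark groups, symbols replicates. Levels are to be compared within a gene: Mcpt8 is at 7.22 or above in old ABC and at 5.73 or below elsewhere, whereas Mcpt4 is at 7.94 or above in B1 and at 4.84 or below in the spleen groups.

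Other genes known from mast cells were read beside the 7. Of 23 measured genes of 26 listed, 5 were higher and 2 lower in old B1 than in old FO, and 16 did not pass, with a median of 0.32. Of all genes 8.4% were higher and 8.02% lower, so the lower count was near that share. The lipid mediator enzyme gene Ltc4s, which makes leukotriene C4, had 7.47, 7.09 and 4.99 in old B1 and 4.13, 3.55 and 3.44 in old FO, a log2 difference of 2.81 ± 0.57 (adjusted p = 0.00636). Mitf, a transcription factor of mast cells and pigment cells, differed by 2.14 ± 0.38 (adjusted p = 0.00291). Macrophages and some B cells are known to express Mitf, and macrophages Ltc4s, as well.

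The serotonin synthesis gene Tph1 (2.17, adjusted p = 0.0417), the leukotriene gene Alox5 (2.08, adjusted p = 0.0436) and Fcer1g, the gamma chain shared by Fc receptors (2.04, adjusted p = 0.0229), were also higher. Hpgds, a prostaglandin D2 synthase gene (-0.77), and Lat2, an adaptor gene (-0.57), were lower. Calls in either direction numbered 3 without old B1 replicate 1, old B1 replicate 2 or old FO replicate 1 and 4 without old FO replicate 2, and Ltc4s and Mitf kept their calls without any 1 array. Hdc, which makes histamine, differed by 1.77 (adjusted p = 0.073), and by 2.61 without old B1 replicate 3 (adjusted p = 0.00037).

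In young B1 against old FO 8 of the 23 were higher and 1 lower, beside 8% and 4.91% of all genes, with a median of 0.96. Mrgprb1, a receptor gene of the Mas-related family, had 6.56, 3.23 and 6.08 in young B1 and 2.83, 2.37 and 2.93 in old FO (2.58 ± 0.67, adjusted p = 0.0276). It was thus high on the same young B1 arrays, replicates 1 and 3, on which 6 of the 7 mast cell genes were highest, and its call was lost without either of them (adjusted p = 0.101 and 0.118) or without any 1 old FO array. The tryptase genes Tpsab1 (0.96, adjusted p = 0.0158) and Tpsg1 (1.09, adjusted p = 0.0399) passed with small differences. Calls in either direction numbered 2 without young B1 replicate 3, 3 without young B1 replicate 1, old FO replicate 1 or old FO replicate 2, and 5 without old FO replicate 3.

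Gata2, which encodes the factor whose motif was searched above, had 6.44, 6.30 and 5.76 in old B1, 7.02, 5.91 and 7.47 in young B1, 7.41, 6.71 and 6.48 in old ABC, and 5.33, 5.77 and 5.92 in old FO. It did not pass in old B1 against old FO (0.49, adjusted p = 0.462) or in old ABC against old FO (1.19, adjusted p = 0.0865). Its order over the 6 peritoneal arrays was that of Cpa3 and Fcer1a.

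The genes that carry signals from the IgE receptor and from Kit were read as lists. Of 13 measured genes of IgE receptor signalling 3 were higher and 2 lower in old B1 than in old FO, with a median of -0.14. Shares of all genes were 8.4% higher and 8.02% lower. Gab2, a scaffold adaptor, differed by 3.63 ± 0.48 (12.4-fold, adjusted p = 0.000503), and Syk, a kinase also used by the B cell receptor, by 0.54 (adjusted p = 0.00471). Fyn, a Src family kinase, was lower by -2.14 ± 0.39 (adjusted p = 0.00336). Of 12 genes of Kit signalling 4 were higher and 2 lower, beside the same shares of all genes, with a median of 0.19. Among those called were Sos1, a Ras exchange factor (1.07, adjusted p = 0.000547), and Ptpn6, a phosphatase (-0.53, adjusted p = 0.00382).

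Fcer1g, unlike the alpha and beta chain genes, had groups that separated old ABC from B1. It averaged 9.85 in old B1, 9.82 in young B1, 12.48 in old ABC and 7.81 in old FO. Old ABC exceeded old FO by 4.67 ± 0.53 (adjusted p = 0.00024), and old B1 was lower than old ABC by -2.63 ± 0.53 (adjusted p = 0.0078). Many myeloid cells express this chain, which other Fc receptors share.

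Mcpt4 and Cma1 lie on chromosome 14 in a cluster of serine protease genes. Cpa3 is on chromosome 3, Kit on 5, Fcer1a on 1, Ms4a2 on 19 and Tpsb2 on 17. In the order of the RefSeq annotation, Mcpt1 and Mcpt2, which are known from mucosal mast cells, lie between Cma1 and Mcpt4. Mcpt1 averaged 2.35 in old B1, 2.19 in young B1, 2.35 in old ABC and 2.20 in old FO, and Mcpt2 ran from 2.70 to 2.86 over the group means. Old B1 against old FO gave 0.15 for Mcpt1 (adjusted p = 0.58) and 0.03 for Mcpt2 (adjusted p = 0.931). Mcpt8, the basophil protease, is the next listed gene after Mcpt4, and these neighbours differed in where they were called: Mcpt4 was higher in old B1 than in both spleen groups, and Mcpt8 higher in old ABC than in old FO and old B1.

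The order of the 6 peritoneal arrays was much the same for most of the 7 genes. Young B1 replicates 1 and 3 were the highest arrays for 6 of the 7 genes, with old B1 replicate 1 next. Old B1 replicate 1 was highest for Ms4a2. The lowest array was young B1 replicate 2 for Mcpt4, Cma1 and Tpsb2, and old B1 replicate 3 for Cpa3, Kit, Fcer1a and Ms4a2. The range over the 6 arrays was 1.29 log2 units for Ms4a2 and 3.41 for Kit, the narrowest and the widest of the 7.

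Pearson's r of the 21 pairs ran from 0.708 to 0.989 with a median of 0.933 (n = 6 arrays). By an exact two-sided permutation test with Benjamini-Hochberg adjustment over the 21 pairs, 16 passed at 0.05 (raw exact p from 0.00139, the smallest these arrays can give, to 0.103). The share that passes among pairs of other genes on these arrays was not computed. The count therefore cannot show a trait particular to these genes. Spearman's rho ran from 0.714 to 1, and by the same exact test 2 pairs passed, Cma1 with Tpsb2 and Cpa3 with Fcer1a (rho 1, adjusted p = 0.0292). Both age groups enter these values, since 3 arrays of an age are too few for a correlation of their own.

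The 10 pairs among Mcpt4, Cma1, Cpa3, Fcer1a and Tpsb2 had r from 0.933 to 0.989 (exact permutation adjusted p from 0.0146 to 0.0333). Without the 2 arrays farthest from the median of the first gene, their r ran from 0.816 to 0.998. All 6 pairs with Kit passed as well (r from 0.843 to 0.955). For Kit with Ms4a2, r fell to 0.475 without the 2 farthest arrays, so this relation rests on those arrays, and for Cma1 with Kit it fell to 0.536. Leaving out old B1 replicate 3, the array that stands apart, kept 11 of the 21 pairs by the exact permutation test on 5 arrays. These were all 10 pairs among Mcpt4, Cma1, Cpa3, Fcer1a and Tpsb2 (r from 0.915 to 0.986, adjusted p = 0.035) and 1 of the 6 with Kit. By Spearman's rho 0 pairs passed, with 4 at an unadjusted exact p under 0.05. On 5 arrays even a rho of 1 had an exact permutation p of 0.0167 (adjusted p = 0.0875), so that count says little. Of the 6 pairs with Ms4a2, whose range was narrow, 1 passed on all 6 arrays (r from 0.708 to 0.868). Without old B1 replicate 3, 0 of them passed (r from 0.530 to 0.908). The tryptase, chymase, carboxypeptidase and IgE-binding chain genes thus moved together from array to array.

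Marker lists of other cells were set on the same 6 arrays, each as the median over its genes of the deviation from their mean on these arrays. The 7 mast cell genes stood at 0.17, -0.35 and -1.09 in old B1 and at 1.24, -0.97 and 1.14 in young B1. The macrophage list (16 genes with a mean at or above the typical array median, a rule kept for every list but the 7) stood at 0.67, 0.66 and -1.02 in old B1 and at -0.42, -0.08 and 0.60 in young B1. Macrophage genes were highest in old B1 replicate 1 for 7 genes and lowest in old B1 replicate 3 for 12. Young B1 replicate 1 was highest for 0 of them and for 3 mast cell genes. Old B1 replicate 3 was lowest for 4 of the 7 mast cell genes. It was also lowest for 9 of 13 IgE receptor signalling, 8 of 11 Kit signalling and 6 of 7 T cell genes. Among B cell identity genes it was lowest for 5 of 13, and among B1 cell genes for 4 of 12. A low value there is thus not particular to macrophage and mast cell genes.

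The T cell list (7 genes) stood at 1.33, 0.58 and -1.24 in old B1 and at -0.07, -0.36 and 0.09 in young B1. The neutrophil list (3 genes) stood at -0.11, 0.12 and -2.22 in old B1 and at -0.22, 2.20 and 0.17 in young B1. Young B1 replicate 2 was thus the highest array for 2 of these 3 neutrophil genes, S100a8 and S100a9, and low for mast cell genes. Mmp9 was instead highest in young B1 replicate 1, at 6.47 against 5.98 in replicate 2. The median of the B cell identity list (13 genes) stayed between -0.04 and 0.04 on all 6 arrays. Its single genes ran from -1.51 (old B1 replicate 3) to 1.25 (young B1 replicate 2). The part of mast cells or other cells carried over with the sorted B1 cells in these deviations was not tested.

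**Figure D4:**
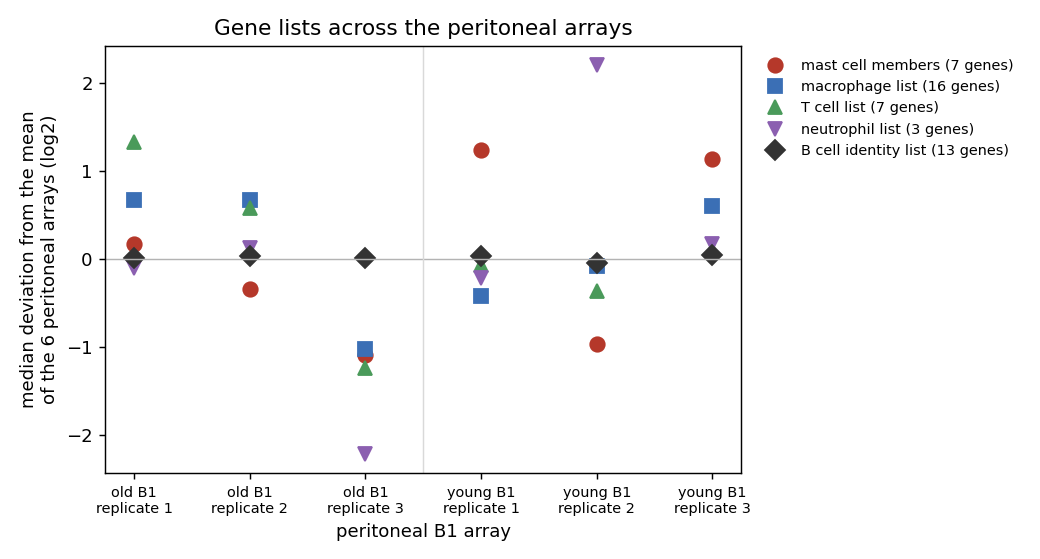
Median deviation from the mean of the 6 peritoneal arrays (vertical axis, log2) for 5 gene lists on each array of old B1 (left) and young B1 (right). The median of the mast cell genes is at 1.24 and 1.14 in young B1 replicates 1 and 3 and at -1.09 in old B1 replicate 3. The median of the B cell identity genes stays within -0.04 to 0.04, though single genes vary more.

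The levels of other markers in the same comparisons are given for scale. Of 18 measured macrophage genes 14 were higher and 1 lower in old B1 than in old FO, where 8.4% of all genes were higher and 8.02% lower. The median of the 18 was 2.85. Their summed intensity ran from 10931 to 31725 in old B1 and from 4540 to 6511 in old FO. Mrc1, the mannose receptor, differed by 3.82 ± 0.31 (adjusted p = 1.61e-05). In old B1 against old ABC 1 of the 18 was higher and 1 lower, beside 5.43% and 7.4% of all genes. Without old B1 replicate 3 the higher count rose to 7, where 15% of all genes passed in either direction. Of 12 mesothelial genes 3 were higher in old B1 than in old FO, Krt18 (8.06), Krt8 (6.69) and Prg4 (5.78), whereas Msln, Upk3b, Wt1, Lrrn4, Muc16 and Bnc1 were under the array median on all 12 arrays. Of 11 neutrophil and 9 T cell genes 0 passed in that comparison by limma (6 and 2 at an unadjusted p under 0.05). Without old FO replicate 1, 6 neutrophil genes were lower and 1 T cell gene passed; without old B1 replicate 3, 1 T cell gene passed, and without it and old FO replicate 2, 3 were higher. None of these markers was tested for a part in the mast cell results.

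Genes outside the 7 with the most similar course over the 12 arrays were looked up against the mean course of the 7, each centred on its own mean. Among 10689 genes whose highest group mean reached the overall probe set median, Pearson's r was highest for Il18 (0.971), Cish (0.970), Relt (0.969), Gas2l1 (0.966), Gbp7 (0.965), Chrnb1 (0.963), Rap1gap (0.963) and Abca3 (0.962). Il18 encodes a cytokine, Cish an inhibitor of cytokine signalling and Relt a TNF receptor family member. Il18 averaged 11.09 in old B1, 11.30 in young B1, 9.65 in old ABC and 8.69 in old FO. Of the 8 genes 0 are in the list of other mast cell genes, and these correlations mostly follow the differences between the 4 groups.

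Ranked against each of the 7 in turn over the 12 arrays, the closest of 18192 genes was another of the 7 for 5 of them. Cma1 and Tpsb2 were closest to each other (r = 0.986), Cma1 was closest to Mcpt4 (r = 0.986), and Fcer1a and Ms4a2 were closest to each other (r = 0.957). For Cpa3 the nearest of the 7 was Mcpt4 at rank 45 (r = 0.936), and for Kit it was Ms4a2 at rank 232 (r = 0.799). After each other, the nearest of the 7 to Fcer1a and to Ms4a2 was Cpa3, at ranks 49 and 151.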

How the data were processed

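Affymetrix arrays of 12 samples were analysed. The authors deposited 1 intensity per probe set and array, on a linear scale. The submitters' processing notes name RMA and affy, while versions, background correction and order of steps are unstated in the sources at hand. The log2 of each deposited intensity was taken. Of 45037 probe sets 34945 carried 1 gene symbol, 932 several and 9160 none; the last 2 kinds were left out.

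Fits used limma 3.58.1 (R 4.3.3; lmFit and eBayes) on all 12 arrays with 4 group means, 8 residual degrees of freedom, no filter and Benjamini-Hochberg adjustment over 18193 genes. Sums, correlations, motif searches and figures used Python 3.11.15, numpy 2.4.6, scipy 1.17.1 and matplotlib 3.10.9. The fit was tested on simulated data.

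The 7 members and the 14 gene lists were chosen with earlier results of these data known. Named are all members, called list genes with the lowest p in old B1 against old FO (up to 6 of the other mast cell list, up to 3 of each other list), genes on which a result turns, and the 8 genes of most similar course, with predicted genes and clone names passed over. Gata2, Hdc, Mrgprb1, Tpsab1, Tpsg1, Mcpt1 and Mcpt2 were named after their values were seen. The number of arrays limits the precision. Alternatives covered moderation, weights, normalization, probe set choice, thresholds and left-out arrays; leaving arrays out for the gene lists was chosen after seeing the data. The procedure does not separate cell number from RNA per cell.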

Additional observations from a re-analysis of the deposited data

How the results depend on the processing

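Each member's difference was recomputed under 19 alternatives in each of 5 comparisons. Of these values 621 kept their direction and side of the threshold, 5 gained and 16 lost a call, and 23 changed sign, all of them for differences that had not passed. The count of members called ranged from 6 to 7 in old B1 against old FO, 3 to 4 in old B1 against old ABC, 6 to 7 in young B1 against old FO and 2 to 4 in old ABC against old FO, and was 0 throughout for old B1 against young B1. Counts called over everything tested ranged from 1455 to 5001, 1062 to 3694, 1318 to 5518, 990 to 3961 and 2 to 316 in the same comparisons. Fits of 2 groups alone or a threshold of 0.01 gave the low values. Array weights gave the high values except 3694, which counts probe sets among 34945 in the fit of every probe set. Over genes the highest count in old B1 against old ABC was 3592, with array weights. The fits with dim genes left out tested 11235 genes.

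Kit in old B1 against old FO passed with array weights (1.42, adjusted p = 0.0422) and with the 75th percentile as a covariate (1.35, adjusted p = 0.0499). Kit in old ABC against old FO passed with array weights (1.60, adjusted p = 0.02) and in the 2 groups alone (adjusted p = 0.0211). At a threshold of 0.01 Cpa3 was lost in both comparisons with old ABC and Kit in young B1 against old FO, and Cpa3 in old B1 against old ABC was also lost in the 2 groups alone (adjusted p = 0.117). The mean of a gene's probe sets lowered called differences by over 1.5 times, to 2.06 for Tpsb2 in old B1 against old FO and against old ABC, 2.62 for Tpsb2, 1.53 for Ms4a2 and 1.51 for Kit in young B1 against old FO, and 1.49 for Ms4a2 in old B1 against old FO, all still called.

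Signs turned in old B1 against old ABC for Ms4a2 with array weights (-0.025), the mean of probe sets (-0.062) and every probe set (-0.18), and without old B1 replicate 1 (-0.17) or 2 (-0.13) or old ABC replicate 2 (-0.09) or 3 (-0.31). For Fcer1a there they turned with cyclic loess (0.033) and the covariate (0.36), and without old B1 replicate 3 (0.28), old ABC replicate 1 (0.39) or 2 (0.18), or both arrays that stand apart (0.28). For Kit there they turned with the covariate (0.12), every probe set (0.14), without old B1 replicate 3 (0.091) and without both arrays (0.091). Ms4a2 in old B1 against young B1 turned with array weights (0.15), the covariate (0.18), and without old B1 replicate 3 or both arrays (0.22). In old ABC against old FO, Tpsb2 turned with every probe set (-0.15) and Cma1 without old ABC replicate 1 (-0.068). Leaving out 1 array at a time gave -0.31 to 0.57 for Ms4a2, -0.86 to 0.39 for Fcer1a and -1.01 to 0.091 for Kit in old B1 against old ABC, -0.45 to 0.22 for Ms4a2 in old B1 against young B1, and -0.068 to 0.83 for Cma1 in old ABC against old FO. The causes were not tested.

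With the replicate number as a block, the members called were 6 in old B1 against old FO, 4 in old B1 against old ABC, 7 in young B1 against old FO, 0 in old B1 against young B1 and 3 in old ABC against old FO. In the same order, 14.1%, 11.2%, 11.1%, 0.176% and 8.48% of all genes were called in these fits, in either direction. Deviations of arrays with the same number correlated from -0.391 to 0.228 over 18 pairs, and with other numbers from -0.388 to 0.435 over 36. These ranges overlapped. The lowest value of each kind and the highest of all involve old FO replicate 2, which stands apart. The ranges therefore cannot settle whether the numbers pair the arrays. On linear intensity 15 of the 21 member pairs passed, against 16 on log2. Without old B1 replicate 3, 11 of the 21 passed.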

Other observations

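Genes of eosinophils, granulocytes that share progenitors with basophils, were also read in the spleen groups. Of 5 measured genes 3 were higher and 1 lower in old ABC than in old FO by limma, beside 7.12% and 2.84% of all genes. Prg2, the major basic protein gene, differed by 2.70 ± 0.53 (adjusted p = 0.00792), and Epx, the eosinophil peroxidase gene, by 2.16 (adjusted p = 0.031). The count of higher genes ran from 1 to 3 when 1 array was left out. The summed intensity of the list ran from 338 to 1077 in old ABC and from 503 to 589 in old FO, so these ranges overlapped. The lower gene was Il5ra, an interleukin 5 receptor gene that B1 cells express too (-1.74, adjusted p = 0.0405). It had 8.38, 5.87 and 6.94 in old ABC and 8.77, 8.66 and 8.97 in old FO, and it makes up most of the sum in old FO, so the overlap of the sums says little of the granule genes. Of 11 neutrophil genes 7 were higher in old ABC than in old FO, beside 7.12% of all genes. In old B1 against old ABC 10 of the 11 were lower, beside 7.4% of all genes. The part of these cells in the Fcer1a, Ms4a2 and Cpa3 values of old ABC was not tested.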
